A study of Homo sapiens with 114 samples.

Results

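The 7 ABC drug efflux transporter genes ABCB1, ABCC1, ABCC2, ABCC3, ABCC4, ABCC5 and ABCG2 were followed in HK-2, a human kidney cell line of proximal tubular origin that grows without limit in culture. They were chosen by name, as the ABC transporters best known for carrying drugs and drug conjugates out of cells, from 19775 genes with a probe set of their own on the Affymetrix array. The choice was made with earlier results of these data known. The study measured total RNA from cultures exposed to 9 compounds, to look for expression signatures of toxicity, on 1 array per culture in 38 groups of 3 cultures that the labels call biological replicates, so that p-values measure the spread between these cultures. The compounds are given by the abbreviations of the labels, and their doses only as high, low or not at all.

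The 26 treated groups were CsA for 12 and 48 h, Aa at the high and the low dose for 24 and 48 h, Nnm and Kbr at the high and the low dose for 24 and 48 h, Ota at the high and the low dose for 24 and 72 h, and Fk, Ra, CdCl and Di for 12 and 48 h. The 12 control groups received vehicle for the same time. Nnm and Kbr shared their controls, Fk shared them with Ra, and CdCl shared them with Di, so that changes of compounds with shared controls are not independent. The labels place the CsA arrays in a laboratory they number 3. All groups came from this 1 line, grown near confluence in medium with growth factor, hydrocortisone and insulin, and an array of bulk RNA cannot tell fewer expressing cells from less RNA per cell.

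ABC transporters are membrane pumps that use ATP to export their substrates. In the proximal tubule ABCB1 (P-glycoprotein), ABCC2 (MRP2), ABCC4 (MRP4) and ABCG2 (BCRP) are known from the apical brush border, where they move drugs, organic anions and conjugates into the urine. ABCC1 (MRP1) and ABCC3 (MRP3) are known as basolateral exporters of glutathione and glucuronide conjugates, and ABCC5 (MRP5) exports cyclic nucleotides and nucleotide analogues.

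In the RefSeq annotation of GRCh38.p14 the genes lie on 7 chromosomes. ABCB1 spans chr7:87503017-87713295, ABCC1 chr16:15949143-16143053, ABCC2 chr10:99782640-99852594 and ABCC3 chr17:50634881-50692253. ABCC4 spans chr13:95019835-95301451, ABCC5 chr3:183919934-184017884 and ABCG2 chr4:88090264-88231626. Promoter windows from 250 bases before to 50 bases after an annotated start were found in RefSeq for 5 of the 7 genes, 10 windows in all because ABCB1 and ABCG2 have several starts. None was found for ABCC1 and ABCC3. Shown are the windows of ABCC2, ABCC4 and ABCC5, the genes with 1 window each. As described below, ABCC2 left the background under CdCl and Di. On their brightest probe sets ABCC4 was called only lower and ABCC5 mostly higher. The ABCC2 window lies on the plus strand at chr10:99782390-99782689, the ABCC4 window on the minus strand at chr13:95301402-95301701 and the ABCC5 window on the minus strand at chr3:184017835-184018134. Capitals mark matches, on either strand, to TGACNNNGC (the core of the antioxidant response element), TGCACNC or TGCGCNC (the core of the metal response element), TGANTCA (AP-1), GGGCGG (GC box), CCAAT and TATAAA. The xenobiotic response core, GCGTG, was searched too and is left in lower case.
ABCC2: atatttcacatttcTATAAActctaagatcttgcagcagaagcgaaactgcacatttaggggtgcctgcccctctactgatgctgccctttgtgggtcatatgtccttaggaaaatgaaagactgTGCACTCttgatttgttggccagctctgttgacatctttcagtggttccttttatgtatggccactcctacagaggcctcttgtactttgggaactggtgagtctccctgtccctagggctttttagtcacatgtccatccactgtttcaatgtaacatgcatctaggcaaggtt
ABCC4: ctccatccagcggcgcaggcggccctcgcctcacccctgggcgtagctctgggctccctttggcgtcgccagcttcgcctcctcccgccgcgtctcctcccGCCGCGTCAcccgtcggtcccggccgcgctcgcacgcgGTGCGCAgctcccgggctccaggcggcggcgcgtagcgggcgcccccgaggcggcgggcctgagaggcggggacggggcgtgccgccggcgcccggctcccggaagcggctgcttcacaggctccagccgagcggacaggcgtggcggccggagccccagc
ABCC5: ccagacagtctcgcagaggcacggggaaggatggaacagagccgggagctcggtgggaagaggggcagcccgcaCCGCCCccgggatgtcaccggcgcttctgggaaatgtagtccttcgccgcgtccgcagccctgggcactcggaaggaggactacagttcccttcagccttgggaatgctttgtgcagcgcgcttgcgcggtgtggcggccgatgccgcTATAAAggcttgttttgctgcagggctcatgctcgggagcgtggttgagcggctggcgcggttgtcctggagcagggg
The capitals in ABCC2 are TATAAA, which lies far upstream of the usual place of a TATA box, and TGCACTC, a match to the metal response core. Such a core was present in 29.6% of the 35116 promoter windows of the RefSeq table, and TATAAA in 11.5%. The ABCC2 window held no TGACNNNGC, which was present in 13.3% of all windows. The ABCC4 window held 1 match to TGACNNNGC and 1 to the metal response core, both read on the opposite strand. None of the matches in capitals overlap, and none of the 3 windows held TGANTCA or CCAAT, present in 7.71% and 34.6% of all windows. A window of ABCB1, which is not shown, held both. The xenobiotic response core, present in 36.5%, was found in the ABCC4 and ABCC5 windows. The ABCC5 window held a GC box, present in 45.0% of all windows, and TATAAA 28 bases before the start. These matches describe the letters of the windows and say nothing of what binds there.

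Signals are log2 values, in which a difference of 1 is a 2-fold difference, and means below log2 4 are called background. The upper quartile of the arrays, a measure of brightness, ranged from 6.32 to 7.18 with a median of 7, except for Ra 48 h replicate 2 at 6.09. It was below every control array on every array of Ota high 24 h (6.32 to 6.59, against 6.97 to 7.08 in controls), Ota high 72 h, Kbr high 24 h, Kbr high 48 h and CdCl 12 h, and its part in the changes of those groups was not tested. The 3′ minus 5′ signal of ACTB, a measure of RNA integrity, averaged 1.35 in Aa high 48 h, against 0.93 in controls, 1.93 in Ota high 72 h, against 1.36, and 1.43 in Di 12 h, against 1.95, and its part was not tested either. Of 15 tubular epithelial markers 7 were above background in all groups, among them KRT8, EPCAM, PAX8 and CDH6. The defining proximal tubular genes AQP1, ANPEP, LRP2, CUBN, SLC34A1 and SLC5A2 were background in all groups. Of 5 fibroblast markers COL1A1, DCN and LUM were above background in all groups, with group means of 5.25 to 8.69, 8.84 to 12.21 and 7.51 to 10.21, and their part in the results was not tested. The other 2 fibroblast markers and all of 3 leukocyte and 4 endothelial markers were background in every group.

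In vehicle cultures ABCB1, ABCC1, ABCC3, ABCC4 and ABCC5 were well above background at every time, while ABCC2 and ABCG2 were not. Over the 12 control groups the mean signal of ABCB1 ranged from 9.19 to 10.14 and that of ABCC4, an exporter of cyclic nucleotides and urate, from 10.34 to 11.22. The basolateral exporters ABCC1 and ABCC3 ranged from 7.61 to 8.86 and from 8.19 to 9.68, and ABCC5 from 7.21 to 8.44. ABCC2 ranged from 2.35 to 2.44 and ABCG2 from 2.19 to 2.23. These values come from different probe sets and give no order of amounts between genes.

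Each treated group was compared with the vehicle group of the same time by limma, fitted over the genes of the cultures that share a set of controls. Calls were made at an adjusted p under 0.05 after Benjamini-Hochberg correction across the whole array. Genes entered a test when they exceeded log2 4 on at least 3 arrays of that set. ABCB1, ABCC1, ABCC3, ABCC4 and ABCC5 entered all 26 comparisons, ABCC2 the 4 comparisons of CdCl and Di, and ABCG2 none. In 134 tests the transporters were called higher 22 times and lower 20 times, with 18 calls of at least 2-fold. ABCC2 entered only through the groups in which it was high and so had to differ; without it 130 tests gave 19 calls higher, 20 lower and 15 of at least 2-fold. Over all genes 11.8% of the tests were called higher and 15.1% lower, so that calls among the transporters lay near the background in number. The plot of all changes shows which transporter was called under which compound.

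**Figure D1:**
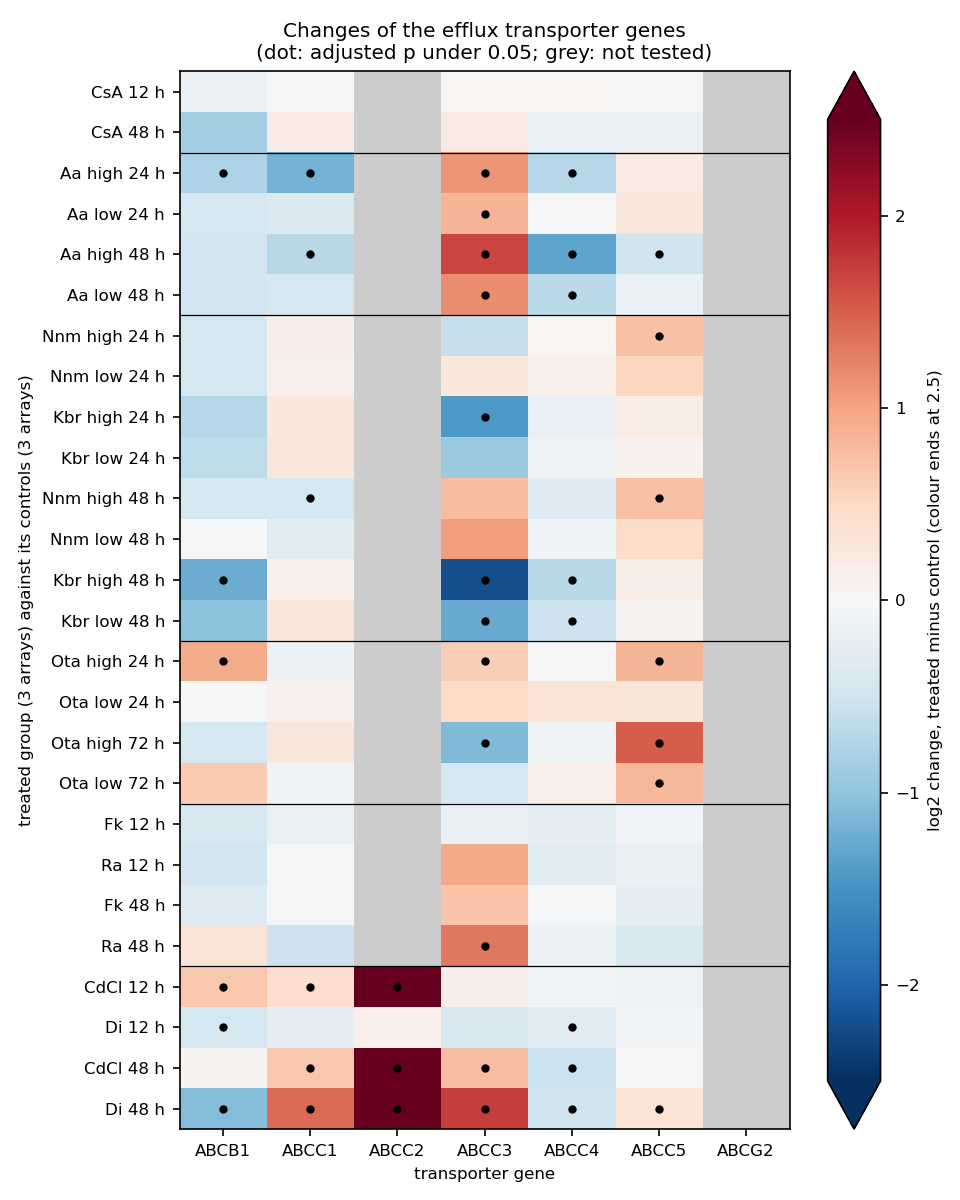
Log2 change of each transporter gene (columns) in each treated group against the vehicle group of the same time (rows, 3 arrays against 3), in colour. Dots mark adjusted p under 0.05 in limma and grey cells genes that were not tested. ABCC4 has dots in blue cells only, ABCC3 in red and in blue cells, and the rows of CsA, Fk and Ra hold 1 dot. The dots of ABCC2 carry no support, since it was tested only where it was high.

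Under Aa at the high dose 4 of the 5 tested transporters were called at both 24 h (1 higher, 3 lower) and 48 h (1 higher, 3 lower), against 49.9% and 64.3% of all genes. At the low dose 1 of 5 was called at 24 h, higher, and 2 of 5 at 48 h, 1 in each direction, against 23.2% and 37% of all genes. In all 4 comparisons the single transporter called higher was ABCC3.

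Under Kbr at the high dose 1 of 5 was called at 24 h and 3 of 5 at 48 h, all lower, against 21.6% and 51.1% of all genes. At the low dose 0 of 5 were called at 24 h and 2 of 5 at 48 h, both lower, against 1.36% and 29.4% of all genes. None was called higher by limma under Kbr in these 4 comparisons. Under Nnm, with the same controls, ABCC5 was called higher at the high dose at 24 h (1 of 5, against 35.9% of all genes), and at 48 h ABCC5 was called higher and ABCC1 lower (2 of 5, against 27.7%). Those shares are 3967 and 3053 of 11036 genes. When only the arrays of the comparison were fitted, 414 and 365 genes were called. At the low dose of Nnm 0 of 5 were called at 24 h and at 48 h, against 18.5% and 14.1% of all genes. With the replicate block ABCC5 was called higher at 24 h, and ABCC3 and ABCC5 at 48 h. The block then called 3522 and 2948 of 11036 genes.

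Under Ota at the high dose 3 of 5 were called at 24 h, all higher, and 2 of 5 at 72 h, 1 in each direction, against 65% and 63.2% of all genes. At the low dose 0 of 5 were called at 24 h and 1 of 5 at 72 h, higher, against 13.7% and 16% of all genes. ABCC5 was in 3 of these 6 calls.

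Under CdCl 3 of 6 were called at 12 h, all higher, and 4 of 6 at 48 h, 3 higher and 1 lower, against 48.7% and 46.4% of all genes. Under Di 2 of 6 were called at 12 h, both lower, and 6 of 6 at 48 h, 4 higher and 2 lower, against 11.8% and 47.4% of all genes. Without ABCC2 the counts were 2 of 5 and 3 of 5 under CdCl and 2 of 5 and 5 of 5 under Di.

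CsA, Fk and Ra gave 1 call among the transporters. Under CsA 0 of 5 were called at 12 h and at 48 h, against 0% and 0.00925% of all genes, and under Fk 0 of 5 at 12 h and at 48 h, against 0.00918% and 0%. The CsA 48 h share is 1 of 10806 genes, but 206 were called with the replicate block and 613 with all arrays in 1 fit. With the block the change of ABCB1 in CsA 48 h (−0.84) was not called by limma (adjusted p = 0.067). Under Ra 0 of 5 were called at 12 h and ABCC3 alone at 48 h, against 0.0367% and 9.33%. The last share is 1016 of 10889 genes, 204 higher and 812 lower. It rests on the setting: 0 were called when only the arrays of the comparison were fitted, 3415 with all arrays in 1 fit, 473 with no filter, and 1734 after quantile normalization, of which 877 were higher. In Ra 12 h 4 genes were called, but 549 when only the arrays of the comparison were fitted. Limma then called ABCC3 higher (0.935, adjusted p = 0.0169) and ABCB1 lower (−0.475, adjusted p = 0.0451). Where the main fit of limma called none, the number of transporters with an unadjusted p under 0.05 was 0 in both CsA comparisons, 1 in each Fk comparison, Nnm low 24 h and Kbr low 24 h, and 2 in Ra 12 h, Nnm low 48 h and Ota low 24 h.

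ABCC2, the apical exporter of glutathione and glucuronide conjugates, appeared above background under CdCl and, later, under Di. At 12 h its signal was 6.67, 6.59 and 6.33 on the CdCl arrays, 2.36, 2.80 and 2.35 on the Di arrays and 2.35, 2.39 and 2.40 on the control arrays. All 3 CdCl arrays stood far above both other groups, and the Di arrays overlapped the controls. At 48 h it was 4.68, 5.42 and 5.81 under CdCl, 5.22, 4.47 and 4.97 under Di and 2.38, 2.36 and 2.37 in controls. At this time both treated groups lay above all controls, and they overlapped each other.

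The control mean was background, so only a bound is given, the mean of the treated arrays against log2 4. ABCC2 was at least 5.78-fold higher in CdCl 12 h, at least 2.47-fold in CdCl 48 h and at least 1.85-fold in Di 48 h than in controls, which are set at that limit. No test is given, because ABCC2 entered the tests only through these groups.

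Outside these groups ABCC2 had only 2 single arrays above log2 4. Aa high 24 h gave 4.52, 3.06 and 3.87, against 2.38, 2.36 and 2.37 in its controls, so that all 3 treated arrays lay above all controls while the group mean of 3.82 was background. Kbr high 48 h gave 4.79, 2.64 and 2.48, against 2.37, 2.37 and 2.38 in controls, and here 1 array carried the difference in means. ABCC2 was not tested in these sets of cultures. In the other groups of CsA, Aa, Nnm, Kbr, Ota, Fk and Ra no group mean exceeded the 2.81 of Kbr low 48 h.

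**Figure D2:**
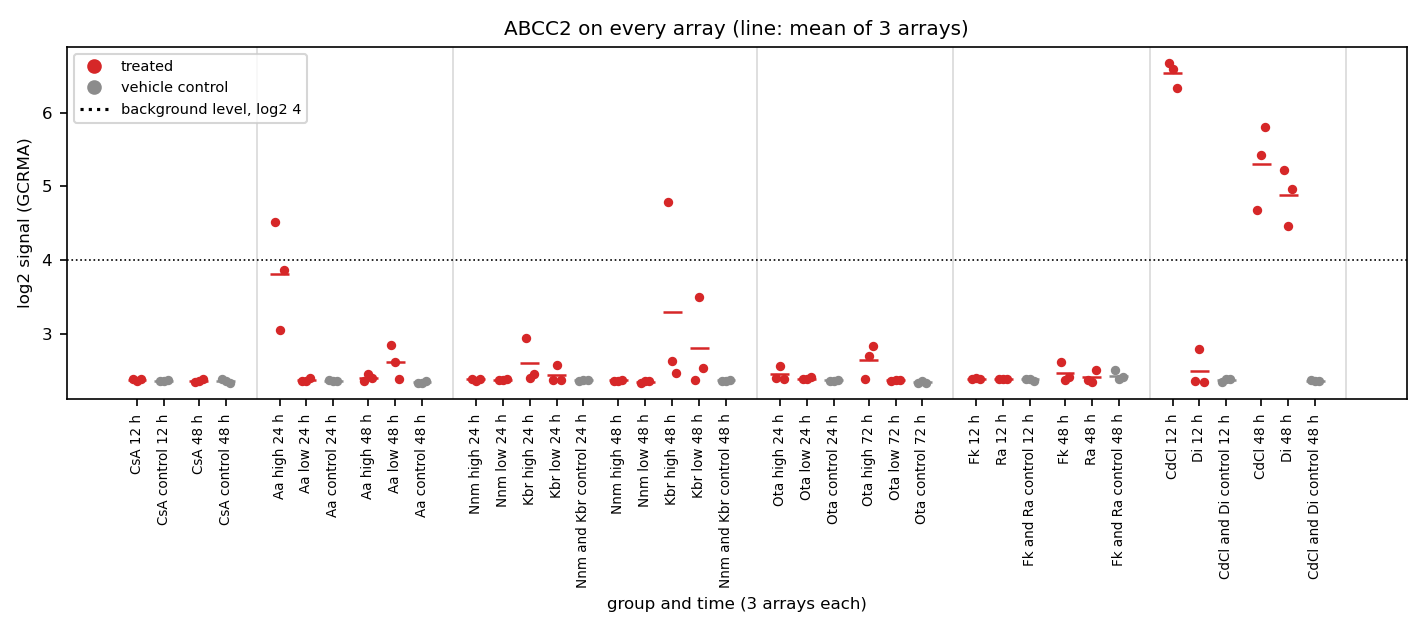
ABCC2 signal (vertical axis, log2) on every array, by group and time (horizontal axis), with treated arrays in red left of their vehicle controls in grey, and a line at each mean of 3. The dotted line is log2 4. Only the means of CdCl 12 h (6.53), CdCl 48 h (5.30) and Di 48 h (4.89) lie above it.

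ABCB1, which encodes P-glycoprotein, an apical pump of hydrophobic drugs, was called higher in 2 of 26 comparisons and lower in 4. Over all genes 11.8% of the tests were called higher and 15.1% lower, so that these counts lay near the background. Under CdCl at 12 h the ABCB1 signal was 10.68, 10.86 and 10.87, against 10.13, 10.15 and 10.13 in controls, a rise of 0.67 ± 0.0657 (adjusted p = 1.51e-06). Under Di it was 9.70, 9.75 and 9.68 at 12 h, a fall of 0.43 against the same controls (log2 change −0.43 ± 0.0657, adjusted p = 0.00141). At 48 h it was 8.97, 8.87 and 8.84 under Di, against 9.93, 10.02 and 9.98 in controls (log2 change −1.09 ± 0.0657, adjusted p = 4e-09). The 2 compounds thus moved ABCB1 apart from shared controls, and CdCl exceeded Di by 1.10 ± 0.0657 at 12 h (adjusted p = 8.42e-09) and by 1.16 ± 0.0657 at 48 h (adjusted p = 5.48e-09). At 48 h CdCl itself, at 10.00, 10.07 and 10.07, overlapped the controls. The 12 h calls of ABCB1 under CdCl and under Di, and that of ABCC1 under CdCl, were lost when all arrays of the study shared 1 fit.

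In Ota high 24 h ABCB1 was 10.52, 10.05 and 10.45, against 9.63, 9.09 and 9.52 in controls, a rise of 0.93 ± 0.272 (adjusted p = 0.00715). All treated arrays were above all controls, and the change exceeded the low dose by 0.93 ± 0.272 (adjusted p = 0.00817). At 72 h the order was turned: the high dose gave 9.22, 8.77 and 9.87 and the low dose 10.40, 10.23 and 10.49, against 9.98, 9.26 and 9.90 in controls. The high dose was lower than the low dose by 1.09 on the log2 scale (SE 0.272, adjusted p = 0.00291), and neither dose was called against the controls. The high dose at 72 h was called lower than controls when Ota high replicate 3 was left out (−0.723, adjusted p = 0.0265), and the low dose higher when only the arrays of the comparison were fitted (adjusted p = 0.049).

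Under Kbr high 48 h ABCB1 was 8.35, 8.54 and 7.97, against 9.63, 9.99 and 8.96 in controls (log2 change −1.24 ± 0.415, adjusted p = 0.016). Under Aa high 24 h it was 9.01, 8.99 and 8.29, against 9.47, 9.87 and 9.28 (log2 change −0.78 ± 0.284, adjusted p = 0.0331). Both groups lay below all their controls. The Kbr call was lost without control replicate 2 or Kbr high replicate 3, and the Aa call without control replicate 1 or 2 or Aa high replicate 3. The Aa call was also lost with no filter (adjusted p = 0.0723) and with the mean of all probe sets (−0.609, adjusted p = 0.0766). With the replicate number as a block, ABCB1 was also called lower in Aa high 48 h (−0.48, adjusted p = 0.0232), Aa low 48 h (−0.47, adjusted p = 0.0355) and Kbr low 48 h (−1.02, adjusted p = 0.00658), for which the adjusted p without the block was 0.153, 0.209 and 0.0667. A second ABCB1 probe set was called in the same direction in 4 of the 4 comparisons in which both were called. It was also called lower in CdCl 48 h (−0.63), where the brighter one was not called. A probe set that the annotation gives to both ABCB4 and ABCB1 changed by −1.11 in Di 48 h and 0.55 in CdCl 12 h, both called.

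ABCC4, an apical exporter of urate and cyclic nucleotides, was called lower in 8 comparisons and higher in 0 of the 26 by limma on its brightest probe set. Over all genes 15.1% of the tests were called lower and 11.8% higher. The largest fall of ABCC4 on its brightest probe set was in Aa high 48 h, at 9.67, 9.85 and 9.32, against 11.07, 11.14 and 10.55 in controls (log2 change −1.31 ± 0.208, adjusted p = 5.54e-05). Aa high 24 h gave 9.86, 9.99 and 9.56, against 10.50, 10.59 and 10.47 in controls (−0.72 ± 0.208, adjusted p = 0.00966). All treated arrays of both groups lay below all controls.

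The other ABCC4 probe sets moved further under Aa. On the third of its probe sets by mean signal ABCC4 was 5.97, 5.87 and 5.99 in Aa high 48 h, against 8.30, 8.61 and 8.67 in controls, a log2 change of −2.58. It was 7.03, 7.77 and 7.58 in Aa low 48 h, between both of these groups, a log2 change of −1.06. The second gave −2.56 for Aa high 48 h, and both of these probe sets were called lower at both doses and both times of Aa. In CdCl 12 h the same 2 probe sets of ABCC4 were called higher, by 0.78 and 0.85, while the brightest probe set gave −0.07 and was not called. With the mean of all its probe sets ABCC4 was called higher in CdCl 12 h (0.388, adjusted p = 0.00252). The fourth ABCC4 probe set was background on all arrays.

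In Ota low 24 h the brightest probe set of ABCC4 gave 11.25, 11.21 and 11.19, against 10.92, 10.88 and 10.78 in controls, without overlap. The difference of 0.355 was not called (adjusted p = 0.0611), but it was called with no filter (adjusted p = 0.0354), with a trend in the variance (0.0339) and with only the arrays of the comparison (0.0326).

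The remaining falls of ABCC4 were −0.68 in Aa low 48 h, −0.70 in Kbr high 48 h, −0.52 in Kbr low 48 h, −0.54 in CdCl 48 h, −0.29 in Di 12 h and −0.49 in Di 48 h. In CdCl 48 h ABCC4 was 10.54, 10.46 and 10.48 and in Di 48 h 10.58, 10.63 and 10.45, against 10.99, 11.04 and 11.08 in controls, with no overlap between treated and control arrays. The control level of ABCC4 in that family was itself higher at 48 h than at 12 h by 0.38 ± 0.0707 (adjusted p = 4e-04). The calls in Aa low 48 h, Kbr low 48 h and Di 12 h were each lost when 1 of several arrays was left out: Aa control replicate 1 or 2 or Aa low replicate 1 or 3, Kbr control replicate 1 or 2 or Kbr low replicate 1 or 2, and Di replicate 2 or Di control replicate 2 or 3. With only the arrays of the comparison Aa low 48 h (adjusted p = 0.0936) and Di 12 h (adjusted p = 0.107) were not called. Di 12 h was also lost with all arrays in 1 fit (adjusted p = 0.595), and Kbr low 48 h with the mean of all probe sets (adjusted p = 0.0593). ABCC4 in Aa high was below Aa low by 0.67 on the log2 scale at 24 h (adjusted p = 0.0269, log2 change −0.67) and by 0.64 at 48 h (adjusted p = 0.0214, log2 change −0.64). Without Aa low replicate 2 the difference at 48 h was −0.403 and was not called, nor was it without Aa high replicate 3. The difference at 24 h was lost without Aa high replicate 1 or 3 or Aa low replicate 2 or 3.

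ABCG2, the apical breast cancer resistance protein, gave no measurable signal in this line. Its 1 probe set lay between 2.17 and 2.61 on all arrays, below log2 4 in every treated and control group. The highest group mean among the treated groups was 2.35 in Ra 12 h, against 2.21 in its controls, with overlapping arrays. No change is given for it, since differences within the background have no order.

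ABCC1, a basolateral exporter of glutathione conjugates, was higher under both CdCl and Di and lower under Aa. Di 48 h gave 9.78, 9.92 and 10.06 and CdCl 48 h 9.17, 9.08 and 9.30, against 8.60, 8.51 and 8.40 in controls, 3 groups without overlap. ABCC1 rose by 1.42 ± 0.0895 in Di 48 h (adjusted p = 6.1e-09) and by 0.68 ± 0.0895 in CdCl 48 h (adjusted p = 1.84e-05). At 12 h it was 8.70, 8.82 and 8.85 under CdCl and 8.11, 8.02 and 8.23 under Di, against 8.31, 8.42 and 8.37 in controls. It rose by 0.42 ± 0.0895 in CdCl 12 h (adjusted p = 0.00126), and in Di 12 h, where all treated arrays lay below the controls, the change of −0.24 was not called (adjusted p = 0.0905). The change of ABCC1 under Di was larger at 48 h than at 12 h by 1.66 ± 0.127 (adjusted p = 1.7e-07).

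Under Aa high 24 h ABCC1 was 6.42, 6.04 and 6.80, against 7.80, 7.30 and 7.72 in controls (log2 change −1.18 ± 0.228, adjusted p = 5.23e-04). Under Aa high 48 h it was 7.50, 6.56 and 7.27, against 7.94, 7.70 and 7.77 (−0.69 ± 0.228, adjusted p = 0.0145), and under Nnm high 48 h 7.66, 7.34 and 7.22, against 7.76, 7.72 and 8.03 (−0.43 ± 0.147, adjusted p = 0.034). In all 3 groups every treated array lay below every control. Without Aa high replicate 2 the 48 h change was −0.418 and was not called, nor was it without control replicate 1. The Nnm call was lost without Nnm high replicate 2 or 3 or control replicate 1 or 3. It was also lost with the mean of all probe sets (−0.22, adjusted p = 0.288) and with only the arrays of the comparison (adjusted p = 0.151). With the replicate block ABCC1 was also called lower in Aa low 48 h (−0.44, adjusted p = 0.0458, against 0.141 without the block). The second ABCC1 probe set was called in 3 comparisons, in the direction of the first in each.

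ABCC3, the basolateral exporter of glucuronides and bile acids, was called higher in 8 and lower in 4 of 26 comparisons. These calls are from its brightest probe set, and no other of these transporters was called in as many. Over all genes 11.8% of the tests were called higher and 15.1% lower. On that probe set Aa raised ABCC3 at both doses and both times. Aa high 48 h gave 11, 11.31 and 10.80 and Aa low 48 h 10.46, 10.73 and 10.39, against 9.30, 9.59 and 9.22 in controls. ABCC3 rose by 1.67 ± 0.213 (adjusted p = 6.55e-06) and by 1.16 ± 0.213 (adjusted p = 7.33e-04) in these groups. At 24 h the high dose gave 10.77, 10.71 and 10.11 and the low dose 10.32, 10.52 and 9.93, against 9.49, 9.68 and 9.09 in controls. ABCC3 rose by 1.11 ± 0.213 at the high dose (adjusted p = 4.93e-04) and by 0.84 ± 0.213 at the low dose (adjusted p = 0.0103), a call that was lost without control replicate 3. In all 4 groups every treated array lay above every control. The high and the low dose were not called apart (adjusted p = 0.386 at 24 h and 0.0635 at 48 h). With the replicate block ABCC3 was higher at the high than at the low dose at 24 h (0.275, adjusted p = 0.0466) and 48 h (0.51, adjusted p = 8.62e-04).

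Di 48 h gave the largest rise of ABCC3, with 10.37, 10.52 and 10.93, against 8.96, 9.00 and 8.71 in controls (1.72 ± 0.135, adjusted p = 6.98e-08). CdCl 48 h gave 9.57, 9.74 and 9.67 against the same controls (0.77 ± 0.135, adjusted p = 2.53e-04), and neither compound was called at 12 h. The change under Di was larger at 48 h than at 12 h by 2.12 ± 0.19 (adjusted p = 8.82e-07). Ra 48 h gave 9.89, 9.94 and 10.03, against 8.73, 8.15 and 9.05 in controls (1.31 ± 0.259, adjusted p = 0.0142). It was 1.32 without Ra 48 h replicate 2, the dim array (adjusted p = 0.0259), and the call was lost without control replicate 1 or 2 and when only the 6 arrays of the comparison were fitted (adjusted p = 0.243). At 12 h all Ra arrays of ABCC3 also lay above the controls, by 0.94 in the mean, and limma did not call this change (adjusted p = 0.314). When only the arrays of the comparison were fitted, this change was called (adjusted p = 0.0169).

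Kbr lowered ABCC3. Kbr high 48 h gave 7.40, 7.10 and 6.99 and Kbr low 48 h 8.36, 8.21 and 7.72, against 9.46, 9.42 and 9.18 in controls, with no overlap between the 3 groups. The log2 changes were −2.19 ± 0.372 (adjusted p = 4.19e-05) and −1.26 ± 0.372 (adjusted p = 0.0136), the second lost without Kbr low replicate 3. At 24 h the high dose gave 8.01, 8.01 and 7.54, against 9.40, 9.41 and 9.03 in controls (−1.43 ± 0.372, adjusted p = 0.00843). The low dose gave 8.38, 8.61 and 8.07, below all controls, and its change of −0.93 was not called (adjusted p = 0.228).

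On its brightest probe set ABCC3 turned direction with time under Ota at the high dose. At 24 h it was 10.49, 10.48 and 9.90, against 9.69, 9.70 and 9.66 in controls (0.61 ± 0.195, adjusted p = 0.0125), a call lost without Ota high replicate 1. The 24 h call was also lost with the mean of all probe sets (0.324, adjusted p = 0.11) and with all arrays in 1 fit (adjusted p = 0.158). At 72 h ABCC3 was 8.12, 8.43 and 8.06, against 9.23, 9.31 and 9.40 (−1.11 ± 0.195, adjusted p = 1.35e-04). The change was lower at 72 h than at 24 h by 1.72 on the log2 scale (log2 difference −1.72 ± 0.276, adjusted p = 1.06e-04).

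Replicates of ABCC3 stood apart in 2 sets of cultures. In CsA 12 h the 3 arrays were 9.59, 9.44 and 6.89, against 9.51, 9.35 and 6.93 in the controls, so that replicate 3 was low with and without the compound. ABCB1 on the same arrays was 9.51, 9.43 and 10.19, against 9.62, 9.59 and 10.35, with replicate 3 high in both groups. In Nnm high 24 h ABCC3 was 8.09, 10.10 and 7.90, against 9.40, 9.41 and 9.03 in controls, and replicate 2 alone lay above them. The change of −0.58 was not called, but without replicate 2 it was −1.28 and was called (adjusted p = 0.000397), as were the difference from the low dose at 24 h (−1.57, adjusted p = 0.000261) and the change between times (2.08, adjusted p = 0.00087). Under Nnm at 48 h all ABCC3 arrays were above the controls at both doses, by 0.79 and 1.05 in the mean (adjusted p = 0.114 and 0.0628). With the replicate block the low dose was called (adjusted p = 0.0213). Without Nnm high 48 h replicate 2, ABCB1 (−1.05, adjusted p = 0.0289) and ABCC4 (−0.543, adjusted p = 0.0091) were called lower in Nnm high 48 h, where limma on all 3 arrays did not call them.

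**Figure D3:**
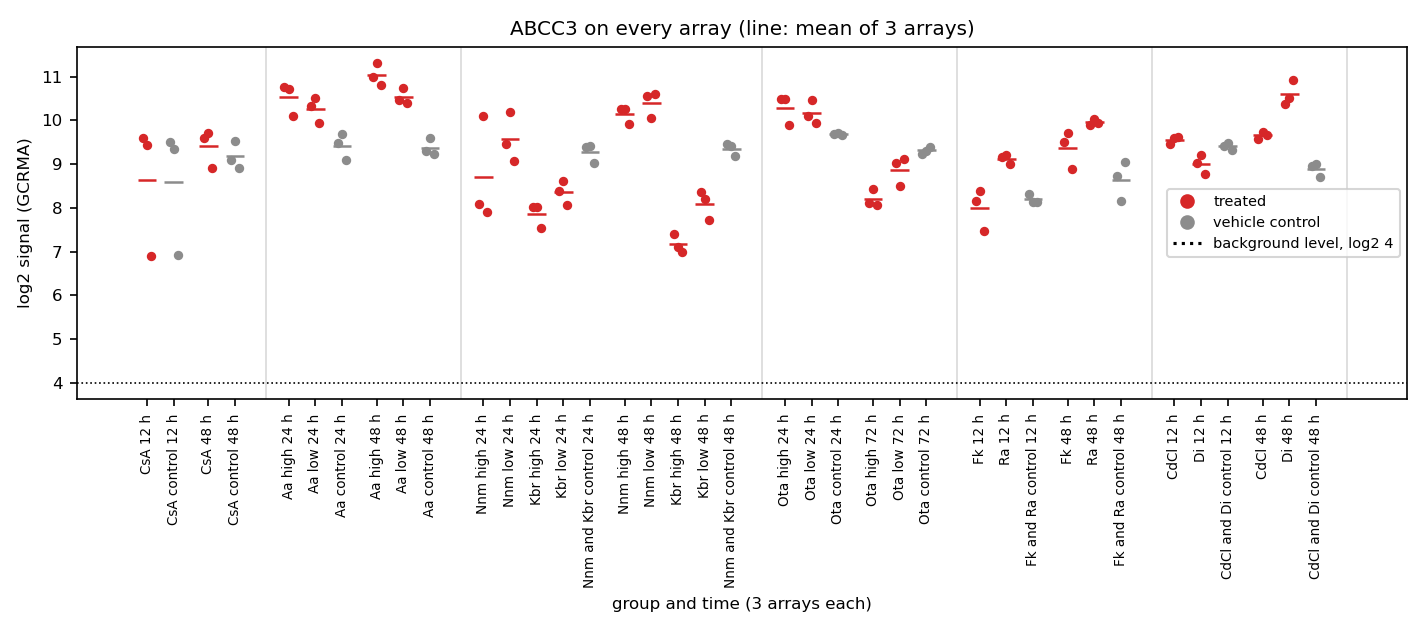
ABCC3 signal (vertical axis, log2) on every array by group and time (horizontal axis), treated arrays in red left of their vehicle controls in grey, with a line at each mean of 3. Aa, Ra 48 h and Di 48 h lie above their controls, Kbr and Ota high 72 h below them, and replicate 3 lies apart in both CsA 12 h groups.

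The 5 probe sets of ABCC3 did not all move together. The second by mean signal was called in the direction of the brightest in 10 of the 10 comparisons in which both were called, with 1.75 in Aa high 48 h and −1.19 in Kbr high 48 h. The third was called with the brightest in 6 comparisons, the same way in 4 and the opposite way in Aa high 48 h (−0.83) and Aa low 48 h (−0.81). The fourth was called with it in 1, the same way. The fifth was called in 2 comparisons, Di 48 h (1.82) and Ra 48 h (0.97), both in the direction of the brightest. When probe sets marked _x_at or _s_at, which include the brightest, were dropped, the Aa changes of ABCC3 turned to between −0.539 and −0.102, Kbr high 48 h gave 0.00511, and the calls in CdCl 48 h, Kbr high 24 h, Kbr low 48 h and both Ota high groups were lost. Over all probe sets of the array 24.8% of the tests were called.

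ABCC5, an exporter of cyclic nucleotides, was called higher in 6 of 26 comparisons and lower in 1 on its brightest probe set. The shares of tests over all genes were 11.8% and 15.1%. Ota high 72 h gave 8.67, 8.74 and 8.75 and Ota low 72 h 8.33, 7.96 and 7.84, against 7.00, 7.40 and 7.23 in controls. ABCC5 rose by 1.51 ± 0.152 (adjusted p = 4.72e-07) at the high and by 0.83 ± 0.152 (adjusted p = 0.0017) at the low dose, with no overlap between the 3 groups. At 24 h the high dose gave 8.76, 8.52 and 8.78, against 7.70, 8.08 and 7.77 in controls (0.84 ± 0.152, adjusted p = 1.75e-04), and the low dose overlapped the controls. The high dose exceeded the low dose by 0.52 ± 0.152 at 24 h (adjusted p = 0.00787) and by 0.67 ± 0.152 at 72 h (adjusted p = 0.00134). The mean under the high dose was 8.72 at 72 h and 8.69 at 24 h, while the control mean was lower at 72 h (7.21) than at 24 h (7.85), a log2 difference of −0.64 ± 0.152 (adjusted p = 0.00478).

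Nnm high gave ABCC5 at 8.68, 8.20 and 8.84 at 24 h, against 7.55, 8.11 and 7.85 in controls (0.73 ± 0.199, adjusted p = 0.00724), and at 8.5, 8.48 and 8.63 at 48 h, against 7.56, 8.05 and 7.78 (0.74 ± 0.199, adjusted p = 0.00908). All treated arrays were above all controls at both times. The 24 h call was lost without Nnm high replicate 3 and the 48 h call without control replicate 1. Both were also lost when only the arrays of the comparison were fitted (adjusted p = 0.0946 at 24 h and 0.0593 at 48 h). With the replicate block ABCC5 was called higher at the low dose of Nnm too, by 0.53 at 24 h (adjusted p = 0.0187, against 0.0653 without it) and 0.45 at 48 h (adjusted p = 0.047, against 0.131). With the block it was also called in Aa low 24 h (0.28, adjusted p = 0.0463, against 0.27 without it).

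Smaller changes of ABCC5 were 0.35 ± 0.103 in Di 48 h (adjusted p = 0.0111) and −0.49 ± 0.172 in Aa high 48 h (adjusted p = 0.0208). Without Di replicate 3 the first was 0.228 and was not called. The second was lost without Aa high replicate 1 or 3 or control replicate 2 or 3.

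The rise of ABCC5 under Ota was called on 1 of its 3 probe sets. The second by mean signal gave 4.85, 4.89 and 5.12 in Ota high 72 h, against 5.05, 5.09 and 5.45 in controls, overlapping. At 24 h it gave 5.36, 5.74 and 5.47 in Ota high, against 5.09, 5.09 and 5.36 in controls, and it was not called in any Ota group. The third was background in all Ota groups, with 2.13, 2.15 and 2.74 in Ota high 72 h, against 3.58, 3.27 and 3.29 in controls. Under Nnm high the second probe set was called lower at 24 h (−0.69), and the third was called higher at 48 h (0.67).

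The third ABCC5 probe set was well above background under CdCl at 12 h, at 7.09, 6.96 and 6.87, against 5.79, 5.78 and 4.87 in controls, and was called higher there by 1.49. The brightest gave −0.13 for that comparison and was not called. Dropping the brightest, which is marked _s_at, turned ABCC5 to −0.243 in Ota high 72 h and −0.117 in Ota low 72 h, and ended the call in Ota high 24 h, where the direction stayed the same (0.342, adjusted p = 0.0535). The direction of ABCC5 therefore differs between its probe sets, and what each one binds was not tested.

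**Figure D4:**
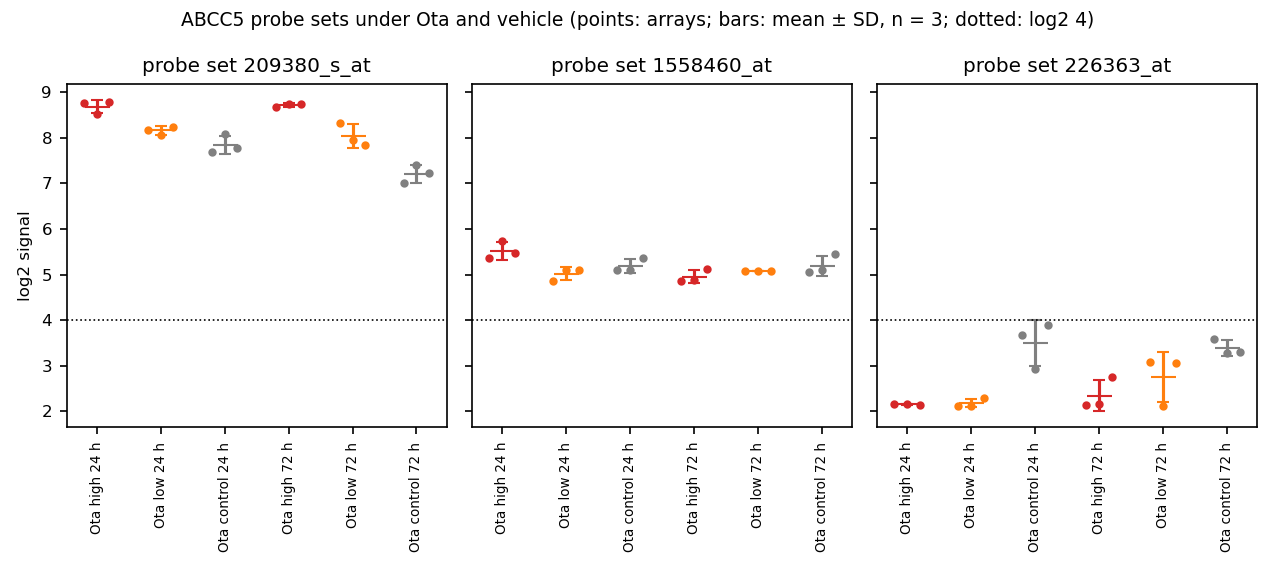
Signal (vertical axis, log2) of the 3 ABCC5 probe sets in the Ota cultures, with the high dose in red, the low dose in orange and vehicle in grey at 24 and 72 h (horizontal axis). Points are arrays, bars the mean ± SD of 3, and the dotted line log2 4. The brightest probe set (left) is higher in both doses than in vehicle at 72 h, the second (middle) overlaps and the third (right) has its means below the dotted line.

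CdCl and Di, compared directly over shared controls, differed in most of the transporters. At 12 h 5 of 6 were higher under CdCl than under Di, against 41.1% of all genes called either way, and at 48 h 1 was higher and 3 lower, against 42.6%. Without ABCC2 4 of 5 were called at each time. ABCC1 was higher under CdCl than under Di at 12 h by 0.67 ± 0.0895 (adjusted p = 3.48e-05) and lower at 48 h by 0.74 on the log2 scale (log2 difference −0.74 ± 0.0895, adjusted p = 1.24e-05). ABCC3 likewise was higher by 0.56 ± 0.135 at 12 h (adjusted p = 0.00402) and lower at 48 h, with a log2 difference of −0.94 ± 0.135 (adjusted p = 5.63e-05). Its 12 h call was lost without probe sets marked _x_at or _s_at (0.5, adjusted p = 0.314). Both ABCC3 calls were lost with all arrays in 1 fit (adjusted p = 0.34 at 12 h and 0.0686 at 48 h). The 12 h difference of ABCC4 (0.22) and the 48 h difference of ABCC5 (−0.36) were called, and both were lost when single arrays were left out: CdCl replicate 1 or 2 or Di replicate 2 for ABCC4, and Di replicate 3 for ABCC5, where the value was then −0.239.

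**Figure D5:**
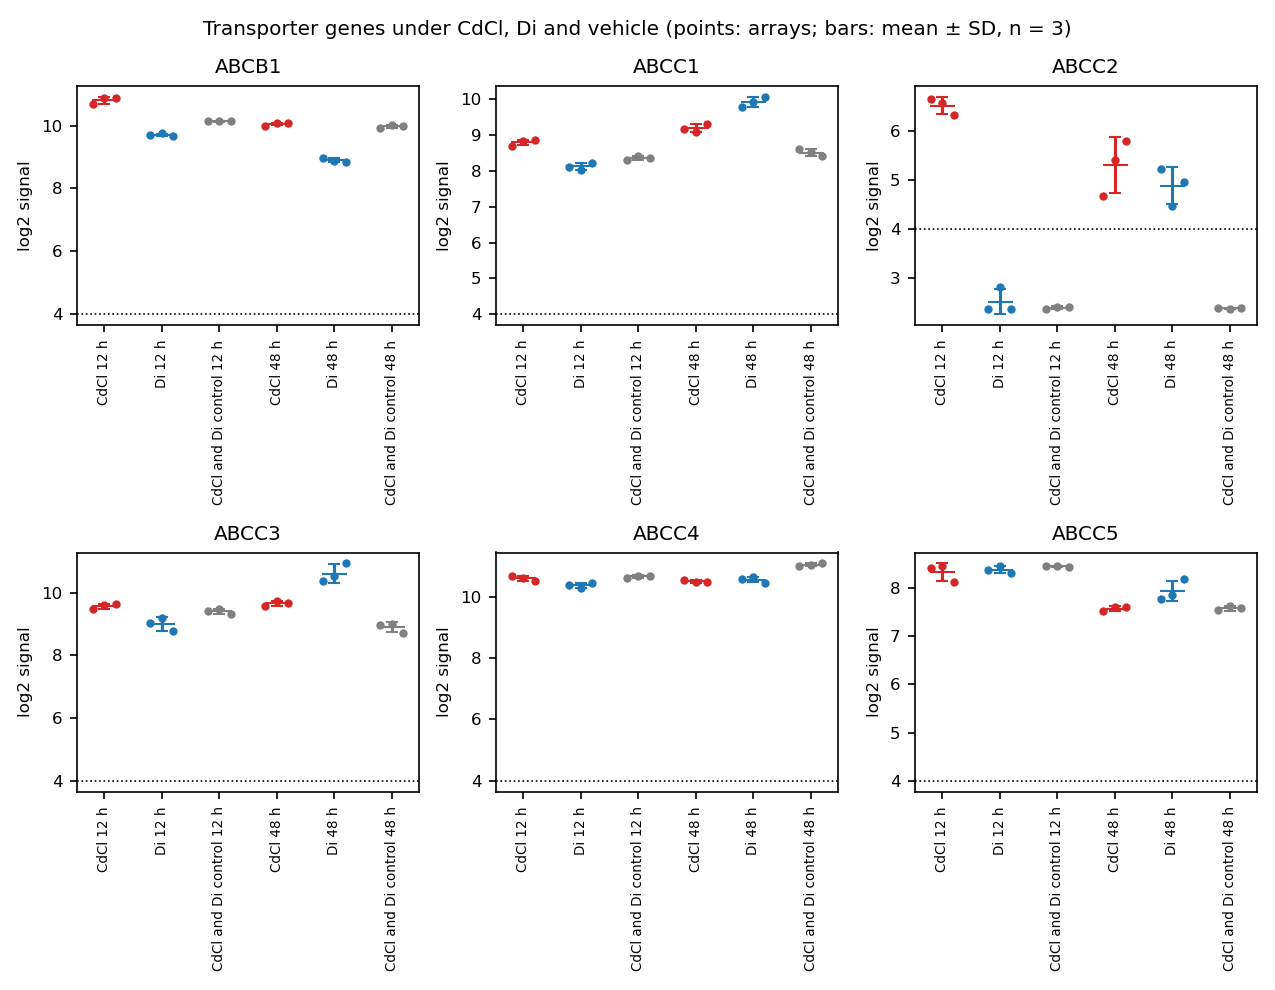
Signal (vertical axis, log2) of 6 transporter genes under CdCl (red), Di (blue) and vehicle (grey) at 12 and 48 h (horizontal axis). Points are arrays, bars the mean ± SD of 3, and the dotted line log2 4; each panel has its own vertical axis. ABCB1 lies above vehicle under CdCl at 12 h and below it under Di at both times, and ABCC2 leaves the background under CdCl at 12 h and under both at 48 h.

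Between 12 and 48 h the change against controls differed for 4 of 6 transporters under CdCl and for 5 of 6 under Di, against 30.4% and 33.6% of all genes. Without ABCC2 the counts were 3 of 5 and 4 of 5. Between 24 and 72 h it differed for 3 of 5 under Ota high, against 53.4% of all genes. In the other 10 such comparisons limma called 0 of the transporters, against 2.86% of all tests, with 0 to 2 of 5 transporters in each at an unadjusted p under 0.05. A block for the replicate number added 4 called differences of Aa between 48 and 24 h, those of ABCC3 (0.557), ABCC4 (−0.594) and ABCC5 (−0.687) at the high dose and of ABCC4 (−0.627) at the low dose.

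Nnm and Kbr, which share controls, differed most in ABCC3 on the brightest probe sets. Nnm high 48 h gave 10.27, 10.26 and 9.92 and Kbr high 48 h 7.40, 7.10 and 6.99, a difference of 2.99 ± 0.372 (adjusted p = 5.37e-07), and at the low dose the difference was 2.3 ± 0.372 (adjusted p = 3.61e-05). Without probe sets marked _x_at or _s_at both calls were lost, with 0.0561 at the high dose (adjusted p = 0.885) and 0.457 at the low dose (adjusted p = 0.23). ABCC1 was lower under Nnm than under Kbr at 48 h at both dose names, by log2 differences of −0.55 and −0.58. Calls numbered 1 of 5 at the high dose at 24 h and 3 of 5 at 48 h, against 42.6% and 56.7% of all genes. At the low dose they numbered 1 of 5 and 3 of 5, against 32% and 42.8%. The calls of ABCC5 at the high dose, 0.56 at 24 h and 0.59 at 48 h, were lost without replicate 1 or 3 of either compound at 24 h and without Kbr high replicate 1 at 48 h. Without probe sets marked _x_at or _s_at ABCC5 was called the opposite way. It then gave −0.718 at 24 h (adjusted p = 0.00323) and −0.815 at 48 h (adjusted p = 0.000671). The low dose calls of ABCC3 at 24 h (1.21) and of ABCC4 at 48 h (0.41) were lost without Nnm low replicate 2 or Kbr low replicate 3, and without any of 5 of the 6 arrays. A block for the replicate number added 5 called differences, ABCC3 at the high dose at 24 h (0.845), ABCB1 and ABCC4 at the high dose at 48 h (0.798 and 0.376), ABCC5 at the low dose at 24 h (0.429) and ABCB1 at the low dose at 48 h (0.98). Equal dose names of both compounds are not equal concentrations. Fk and Ra differed in ABCB1 at 48 h, which was 8.46, 9.10 and 9.02 under Fk and 9.56, 9.21 and 9.76 under Ra (log2 difference −0.65 ± 0.188, adjusted p = 0.0475, 1 of 5, against 7.39% of all genes). It was −0.804 without Ra 48 h replicate 2 (adjusted p = 0.0335), and the call was lost without Fk replicate 1 or 2 or Ra replicate 3. It was also lost with no filter (adjusted p = 0.0657), with the mean of all probe sets (−0.463, adjusted p = 0.23), without _x_at and _s_at probe sets (adjusted p = 0.0562), with all arrays in 1 fit (adjusted p = 0.127) and with only the arrays of the comparison (adjusted p = 0.349). At 12 h limma called 0 of 5 between them, against 0% of all genes, with 1 at an unadjusted p under 0.05.

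High and low doses differed in 2 of 5 transporters for Aa at 24 h and 1 of 5 at 48 h, against 26.4% and 44.8% of all genes. For Ota they differed in 3 of 5 at 24 h and 4 of 5 at 72 h, against 58.9% and 57.8%. In the 4 dose comparisons of Nnm and Kbr limma called 0 of 5 each, against 2.02% of all tests, with 0 or 1 at an unadjusted p under 0.05. In Aa ABCC1 was lower at the high than at the low dose at 24 h (log2 difference −0.83 ± 0.228, adjusted p = 0.0142), a call lost without Aa high replicate 2 or Aa low replicate 3. In Ota ABCC4 was lower at the high dose at 24 h (−0.35), lost without Ota high replicate 2 or Ota low replicate 1. ABCC3 was lower at the high dose at 72 h (−0.67) and ABCC1 higher (0.37), the call of ABCC1 lost without any of 5 of the 6 arrays, all but Ota high replicate 2. With the replicate block ABCC5 was lower at the high dose of Aa at 48 h (−0.323, adjusted p = 0.0155) and ABCC3 at the high dose of Kbr at 48 h (−0.936, adjusted p = 0.0483).

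Vehicle cultures also changed with time. Of the CdCl and Di controls 3 of 6 transporters differed between 48 and 12 h, against 48.9% of all genes, with ABCC5 lower at 48 h by a log2 difference of −0.87 ± 0.103 (adjusted p = 5.98e-06). This ABCC5 call was lost without probe sets marked _x_at or _s_at (−0.339, adjusted p = 0.155). In Ota controls 3 of 5 differed between 72 and 24 h, against 28.8%, and in CsA controls ABCC5 was lower at 48 h (−0.56, 1 of 5, against 13.5%). The CsA call was lost without any 12 h control replicate or without 48 h control replicate 3, and with the replicate block ABCC1 (0.585) and ABCC4 (0.519) were called there too. Without probe sets marked _x_at or _s_at the CsA call of ABCC5 was also lost (−0.264, adjusted p = 0.348). In Ota controls ABCC5 was lower at 72 h (−0.64), and ABCC1 (0.47) and ABCC4 (0.36) were higher. There ABCC5 gave 0.0147 without probe sets marked _x_at or _s_at (adjusted p = 0.971) and −0.248 with the mean of all probe sets (adjusted p = 0.14). The calls of ABCC1 and ABCC4 were lost without 24 h control replicate 1 or 2 or, for ABCC1, 72 h replicate 3 and, for ABCC4, 24 h replicate 3 or 72 h replicate 1 or 2. In the other 3 sets of controls 0 were called by limma, against 5.89% of all tests, with 0 to 2 of 5 at an unadjusted p under 0.05. Every change of a treated group stands against controls of its own time.

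Other genes of the transport and conjugation pathways were counted from 5 lists, which were chosen with earlier results of these data known. Of 35 other ABC transporters 18 entered the tests in some set, and they were higher in 15.1% and lower in 14.7% of 450 tests, against 11.8% and 15.1% of tests over all genes. The lipid transporter ABCA12 was lower in 12 comparisons, with 3.94 in Aa high 48 h, against 8.61 in controls. ABCB6, a mitochondrial porphyrin transporter, was higher in 9 and lower in 2, with 8.67 in Aa high 48 h, against 6.45 in controls. ABCF1, a translation factor of the ABC family that is no membrane pump, was higher in 7 and lower in 3, with 6.19 in Ota high 24 h, against 9.54 in controls.

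Of 22 uptake and exchange transporters 7 were tested, higher in 17.1% and lower in 14% of 164 tests. The shares over all genes were 11.8% and 15.1%. SLC22A4, a carnitine and ergothioneine transporter, was higher in 9 comparisons and lower in 2, with 8.64 in Aa high 48 h, against 5.92 in controls. SLCO4C1, an organic anion transporter of the kidney, was lower in 10, with 7.86 in Aa high 48 h, against 10.52 in controls. SLCO2A1, a prostaglandin transporter, was higher in 4 and lower in 5.

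Of 29 glutathione and conjugation genes 19 were tested, higher in 11.4% and lower in 17.4% of 472 tests. All genes gave 11.8% and 15.1%. GCLM, a subunit of the enzyme that begins glutathione synthesis, was higher in 11 comparisons and lower in 0 by limma, with 13.3 in Di 48 h, against 9.74 in controls, a rise of 3.57 ± 0.0859 (adjusted p = 2.24e-13). The glutathione transferase genes GSTK1 and GSTO2 were each lower in 10 comparisons, GSTK1 higher in 1, with their largest falls in Kbr high 48 h (log2 changes −2.20 and −2.16). Kbr high 48 h also held the largest fall of ABCC3.

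Of 23 transcription factor genes known to act on efflux genes 14 were tested, higher in 14.5% and lower in 9.54% of 346 tests. Over all genes these shares were 11.8% and 15.1%. JUN was higher in 11 comparisons and MAFG in 10, with rises of 2.36 ± 0.204 and 1.88 ± 0.206 in Aa high 48 h, and RXRA was lower in 7 and higher in 1. Of 11 scaffold and cytoskeleton linkers of apical transporters 9 were tested, higher in 5.98% and lower in 22.6% of 234 tests, against the same 11.8% and 15.1%. RDX, which encodes radixin, a linker between membrane proteins and actin, was lower in 10 comparisons, with 7.82 in Ota high 24 h, against 11.39 in controls. CAV1 was lower in 10 and MYO5B lower in 10 and higher in 7.

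The transporters did not share 1 pattern over the 26 changes. Pearson r between the changes of 2 transporters ranged from −0.29 (ABCC3 and ABCC5) to 0.46 (ABCB1 and ABCC4). Compounds with shared controls are among these points, and r is given as a description. Among 10522 genes tested in all sets, the genes with the most similar changes were WFDC2, OXCT1 and DCN for ABCB1 (r 0.819, 0.784 and 0.771), and BMAL1, DOCK9 and CDYL for ABCC1 (0.849, 0.818 and 0.81). For ABCC3 they were HLA-B, RNF213 and SPATA20 (0.85, 0.839 and 0.837), for ABCC4 DKFZP586I1420, SLC44A5 and PPM1B (0.89, 0.887 and 0.885), and for ABCC5 XPO1, PAPOLA and METTL14 (0.881, 0.851 and 0.833).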

How the data were processed

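Per the submitters' processing notes, arrays were summarized with GCRMA, and series text states that all arrays were normalized together. The log2 signals of 54675 probe sets on each array were used as deposited. Probe sets were named by the platform annotation (41091 with 1 gene symbol, 1801 with several, 11721 with none and 62 controls), and the brightest probe set on average stood for a gene. Precision is limited by 3 arrays per group.

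limma 3.58.1 in R 4.3.3 was fitted once for each of 6 sets of cultures that share controls (group means, contrasts, empirical Bayes), over 10806 to 11138 genes above log2 4 on at least 3 arrays of the set. Genes were called at a Benjamini-Hochberg adjusted p under 0.05. A change between times is the interaction of treatment and time. Standard errors come from the moderated spread over the whole set. The procedure was tested on simulated data. Promoter windows were searched and figures drawn with Python 3.11.15, pandas 2.3.3 and matplotlib 3.10.9.

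The transporters and the gene lists were chosen with earlier results of these data known. All 7 transporters were named in every comparison. From each list the 3 genes called in most comparisons were named, and for each transporter the 3 genes with the highest Pearson r over the 26 changes.

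Pairing by the labels' replicate numbers was checked by correlating residuals of treated and control arrays of the same number. Every pair exceeded 0.1 for CsA (0.534 to 0.931), Aa (0.28 to 0.537) and Nnm with Kbr (0.139 to 0.673). This was not so for Ota (−0.0542 to 0.409), Fk with Ra (−0.176 to 0.76) or CdCl with Di (−0.274 to 0.16). CsA, Aa and Nnm with Kbr were thus paired by number, but the main fit did not use the pairs. Values given without mention of the block leave this pairing out. The alternatives were other filters, the mean of a gene's probe sets, dropping all probe sets marked _x_at or _s_at, quantile normalization, a trend in the variance, the replicate block, other sets of arrays in the fit, and leaving out each array.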

Additional observations from a re-analysis of the deposited data

Results flagged for a closer look

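The change of a transporter against its controls differed between the 2 times of a compound in 12 cases, 10 of them without ABCC2, by the test of treatment and time together in limma. Under Di ABCC3 and ABCC1 rose more at 48 h than at 12 h, by 2.12 ± 0.19 (adjusted p = 8.82e-07) and 1.66 ± 0.127 (adjusted p = 1.7e-07). ABCC5 did so by 0.42 ± 0.146 (adjusted p = 0.0364), a call that was lost with the replicate block, with no filter (adjusted p = 0.0505), with all arrays in 1 fit (adjusted p = 0.376) and without 8 of 12 single arrays. The change of ABCB1 under Di was lower at 48 h, with a difference of −0.66 ± 0.0928 (adjusted p = 7.23e-05), a call lost when all arrays shared 1 fit (adjusted p = 0.407). For ABCC2 these differences are a description without support, 2.39 under Di and −1.22 under CdCl, since it entered the tests only where it was high and its controls and Di 12 h were background.

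Under CdCl the change of ABCB1 was lower at 48 h than at 12 h, with a difference of −0.60 ± 0.0928 (adjusted p = 2.79e-04) and so was that of ABCC4, with −0.47 ± 0.1 (adjusted p = 0.00242). Both calls were lost when all arrays shared 1 fit (adjusted p = 0.492 and 0.213). The change of ABCC3 was higher by 0.62 ± 0.19 (adjusted p = 0.023), a call lost without CdCl 12 h replicate 1, CdCl 48 h replicate 2, the 12 h control replicate 2 or the 48 h control replicate 3, with all arrays in 1 fit (adjusted p = 0.55) and without _x_at and _s_at probe sets (0.345, adjusted p = 0.669). Under Ota at the high dose the change at 72 h was lower than at 24 h for ABCB1 (−1.36 ± 0.384, adjusted p = 0.00774) and ABCC3 (−1.72 ± 0.276, adjusted p = 1.06e-04), and higher for ABCC5 (0.67 ± 0.214, adjusted p = 0.0155). Without _x_at and _s_at probe sets the ABCC3 call was lost (−0.816, adjusted p = 0.129) and ABCC5 turned to −0.585 (adjusted p = 0.0289). The ABCC5 call was also lost with the mean of all probe sets (0.132, adjusted p = 0.531) and after quantile normalization (0.486, adjusted p = 0.0674). The brightness of the Ota high arrays lay below that of their controls at both times, and its part in these differences was not tested.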

How the results depend on the processing

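Calls among the transporters numbered 22 higher and 20 lower against controls, 10 between doses, 12 between times, 7 between times in controls and 18 between compounds, ABCC2 included. Leaving out each array in turn gave 21 to 25, 18 to 22, 8 to 12, 10 to 14, 5 to 9 and 16 to 20 in that order. With the replicate number as a block the counts were 28, 25, 14, 15, 9 and 23, and in the paired sets of CsA, Aa and Nnm with Kbr the block ended no call. Calls over all genes rose too in the Aa, Nnm and Kbr groups. They went from 2576 to 4163 in Aa low 24 h, from 2044 to 3522 in Nnm low 24 h and from 150 to 857 in Kbr low 24 h. Under CdCl and Di they fell, from 5383 to 5256 in CdCl 12 h. In Ota, whose numbers did not pass the check of pairing, the block called ABCB1 at 72 h (−0.428 at the high and 0.661 at the low dose) and ABCC4 in the low dose at 24 h (adjusted p = 0.0481). Counts moved by over 1.5 times in 5 cases. Without probe sets of the suffixes _x_at and _s_at, 10 were higher, 3 differed in controls and 11 between compounds. With the mean of all probe sets 4 differed in controls, and with all arrays in 1 fit 7 differed between times. Of 89 called results 29 kept their call and direction under every alternative and 57 under every left-out array. Quantile normalization turned no called direction. It moved the median of all genes by 0.215 in Ota high 24 h (median −0.29) and 0.205 in Ra 48 h (median −0.19), after which ABCB1, ABCC3 and ABCC5 gave 0.987, 0.656 and 1.09 in Ota high 24 h, and ABCB1 was called in Ra 48 h (0.539, adjusted p = 0.0387).

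Among values called in either setting, directions turned only with the choice of probe set. With the mean of all probe sets ABCC5 gave −0.135 in Nnm high 24 h, −0.0811 between Nnm and Kbr high 24 h, −0.0584 in Ota high 24 h, −0.393 in Ota low 24 h, 0.569 in CdCl 12 h, −0.205 in Di 48 h, −0.0841 between the times of Di, and 0.691 and 0.336 between CdCl and Di at 12 and 48 h. ABCC4 gave 0.388 in CdCl 12 h and 0.123 in Di 12 h, and ABCB1 −0.279 in CdCl 48 h. Without the suffixes ABCC3 gave −0.338 and −0.539 in Aa high 24 and 48 h, −0.102 and −0.26 in Aa low 24 and 48 h, 0.00511 in Kbr high 48 h and 0.145 between Ota doses at 72 h. ABCC5 gave −0.879 in Aa high 24 h, −0.685 and −0.427 in Nnm high 24 and 48 h, −0.718 and −0.815 between Nnm and Kbr high, −0.243 and −0.117 in Ota high and low 72 h, −0.126 between Ota doses at 72 h, −0.585 between the times of Ota high, 0.0147 between Ota controls, −0.221 in Di 48 h, −0.286 between the times of Di and 0.422 between CdCl and Di at 48 h. Of these turned ABCC5 values limma called those in Aa high 24 h (adjusted p = 0.0119) and Nnm high 24 h (0.007). It also called those between Nnm and Kbr high (0.00323 and 0.000671) and between the times of Ota high (0.0289). The cause of the turned directions was not tested, and these settings use dimmer probe sets by construction. The size of the ABCC2 changes is given only as a bound, because its control means were background. The 3 arrays per group limit all results.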
